A study of Mus musculus with 9 samples.

Results

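The genes described here are those of the mouse major histocompatibility complex, whose symbols begin with H2-, together with 7 partner genes of antigen presentation (B2m, Tap1, Tap2, Tapbp, Cd74, Ciita and Nlrc5). They were taken by symbol from the table of nascent transcription, which lists 24505 genes. The choice gave 51 genes, 44 with the H2 name and the 7 partners, and 1 of them, H2-M2, was singled out because its value in M cell cultures was already known to be high. Its values in the comparisons with those cultures are therefore given as a description, without a test.

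The series used mini-gut cultures of mouse duodenum, the first stretch of the small intestine, under 3 conditions that the labels name RANKL, ENRI and WENRC without spelling the names out. The labels give the cell type as intestinal M cell for RANKL, enterocyte (the absorptive cell) for ENRI and intestinal stem cell for WENRC. GRO-seq, in which nascent RNA is labelled in nuclei by a global run-on and sequenced, was done on 2 libraries of each culture, and ChIP-seq of H3K27me3, a histone mark of Polycomb repression, on 2 RANKL libraries and 1 WENRC library. No strain, sex, age, genetic change or dose is given for any group. ENRI and WENRC libraries carry a mouse number (1 or 2), and RANKL libraries only a replicate number. Nothing therefore says the RANKL libraries came from separate animals or cultures, and p-values may measure technical spread there. In a fit shared by all cultures, this reaches every comparison. The strain matters to these genes, since H2 genes differ in number and sequence between strains and the reads were counted on 1 reference genome, mm9.

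As background, class I molecules consist of a heavy chain (H2-K1, H2-D1 and H2-L for the classical or class Ia kind) and beta-2 microglobulin, the product of B2m. They carry peptides that the TAP transporter (Tap1, Tap2) moves into the endoplasmic reticulum and that tapasin (Tapbp) helps to load, and they show these to CD8 T cells. The many class Ib heavy chains of the H2-Q, H2-T and H2-M groups have narrower roles, such as presenting to gamma-delta T cells or engaging receptors of natural killer cells. Class II molecules (H2-A and H2-E chains) are loaded in endosomes with the help of the invariant chain (Cd74) and the H2-DM peptide exchanger, and they are mainly made by dendritic cells, B cells and macrophages, although gut epithelium can be induced to make them. M cells lie over the lymphoid follicles of the gut, carry luminal particles to the immune cells beneath, and differentiate on exposure to the cytokine RANKL.

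All GRO-seq values given here are log2 values as normalized by the authors; at low read numbers this scale compresses differences and so understates them. The depth of these libraries is unknown. A gene was tested where at least 2 libraries reached log2 of 10, which 16563 genes did, and was called at a Benjamini-Hochberg adjusted p (FDR) under 0.05 in limma. In bulk libraries, fewer cells of a type and less RNA per cell cannot be told apart. Of 8 M cell markers, 8 were called higher in RANKL than in ENRI and 7 higher than in WENRC; of 5 stem cell markers, 5 were called higher in WENRC than in ENRI and 3 higher in RANKL than in ENRI; and of 7 enterocyte markers, 6 were called lower in WENRC than in ENRI and 3 lower in RANKL than in ENRI. The RANKL libraries are named in the table's header as combined reads of a repeat sequencing, so that sequencing batch and RANKL culture cannot be told apart.

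Of the 51 genes, 34 could be tested. All 3 class Ia genes, all 5 class I partners and 21 of 30 class Ib genes passed the filter, but only 4 of 12 class II genes did (Cd74, Ciita, H2-DMa and H2-Eb1); H2-Ke6, which lies in the complex but encodes no class I or class II chain, was the remaining tested gene. Of the 17 that did not pass, H2-Ea-ps, H2-M9, H2-M1 and H2-M10.6 were listed at 0 in every library. The other 13 had values between -1.98 and 2.42, and their culture means lay within 0.16 of each other.

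H2-M2 (NM_001347387, mm9 chromosome 17, 37617796 to 37620499, minus strand), a class Ib gene at the far end of the complex, had values of 10.19 and 10.21 in RANKL. It had 3.20 and 3.23 in ENRI and 2.82 and 3.71 in WENRC. Both RANKL libraries thus stood far above the other 4, which lay near the filter and overlapped between ENRI and WENRC. The mean was 6.98 higher in RANKL than in ENRI and 6.93 higher than in WENRC, which placed the gene at rank 2 of 16563 by log2 change in each comparison; these comparisons share the RANKL libraries. In the authors' deposited table the corresponding log2 changes were 9.56 and 9.90. WENRC and ENRI differed by 0.05 in their means and by -0.40 without WENRC 2; no test is given here either, since the gene passed the filter through its RANKL values. Scaled by gene length, its level in RANKL (8.76, log2 per kb) exceeded that of H2-K1 there (7.77), whereas in ENRI H2-M2 stood at 1.78 and H2-K1 at 8.31.

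The genes around H2-M2 are olfactory receptor genes, and none of the 3 on either side passed the filter. Olfr109, whose end lies 13699 bp from H2-M2 in the direction of its transcription, had 3.09 and 2.90 in RANKL, 2.25 and 2.26 in ENRI and 2.25 and 2.27 in WENRC. Olfr108, 34334 bp away on the same side, had 3.14 and 3.08 in RANKL, 2.45 and 2.38 in ENRI and 2.37 and 2.39 in WENRC. Olfr107, 74342 bp away on that side, had 1.72 and 1.61 in RANKL, 1.38 and 1.42 in ENRI and 1.38 and 1.39 in WENRC. For all 3 genes on this side the RANKL libraries lay above all others at low values. The authors' deposited table gave Olfr109 log2 changes of 7.44 (adjusted p 0.00337) over ENRI and 7.24 (adjusted p 0.00117) over WENRC, and Olfr108 4.69 (adjusted p 0.0272) and 7.27 (adjusted p 0.000999). On the other side, Olfr110, 8914 bp from the start of H2-M2, ranged from 0.69 to 0.91 over the 6 libraries, and Olfr111 was listed at 0 in all of them. Olfr112, 79685 bp away, ranged from -0.29 to -0.21.

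By the Euclidean distance between values centred on each gene's mean over the 6 libraries, the gene most like H2-M2 was Kcnj15, a potassium channel gene on chromosome 16, at a distance of 0.315. Its values were 9.95 and 10.11 in RANKL, 2.92 and 3.33 in ENRI and 2.80 and 3.68 in WENRC. Pglyrp2, a peptidoglycan recognition protein gene on chromosome 17, followed at 1.30, then the adhesion receptor gene Adgrd1 at 1.50, the retroviral envelope-derived Erv3 at 1.58 and Ncf4, a subunit gene of the phagocyte NADPH oxidase, at 1.70. None of these 5 is among the H2 genes or their partners.

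Promoter sequences were taken from the RefSeq table on GRCm38.p6, a later build than that of the measurements, where 35 of the 51 genes had a window of 300 bases around the start. Both strands were searched for the NF-kB consensus of 10 bases, for the interferon-stimulated response element, searched as GAAA, any 2 bases and GAAA, for CCAAT, which occurs in the Y box of class I and class II promoters, and for GAGGAAGT, a site of Ets factors of the Spi group. Shown are the 250 bases before the start, 5′ to 3′ on the gene's strand, of H2-M2 (chr17:37483555-37483804), of the class Ia gene H2-K1 (chr17:34000348-34000597) and of 2 class Ib genes whose transcription differed in opposite directions between RANKL and ENRI, H2-Q7 (chr17:35438905-35439154) and H2-Q10 (chr17:35469839-35470088); capitals mark matches to the NF-kB consensus.
H2-M2: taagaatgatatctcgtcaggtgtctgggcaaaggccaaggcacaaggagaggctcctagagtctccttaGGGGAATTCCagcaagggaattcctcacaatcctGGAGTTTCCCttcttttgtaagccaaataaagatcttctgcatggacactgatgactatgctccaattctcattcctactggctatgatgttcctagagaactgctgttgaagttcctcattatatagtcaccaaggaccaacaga
H2-K1: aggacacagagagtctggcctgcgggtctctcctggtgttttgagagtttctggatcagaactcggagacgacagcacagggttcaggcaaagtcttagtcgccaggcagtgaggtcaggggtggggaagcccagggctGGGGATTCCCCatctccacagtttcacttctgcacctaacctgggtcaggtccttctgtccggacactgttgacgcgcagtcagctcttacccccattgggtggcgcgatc
H2-Q7: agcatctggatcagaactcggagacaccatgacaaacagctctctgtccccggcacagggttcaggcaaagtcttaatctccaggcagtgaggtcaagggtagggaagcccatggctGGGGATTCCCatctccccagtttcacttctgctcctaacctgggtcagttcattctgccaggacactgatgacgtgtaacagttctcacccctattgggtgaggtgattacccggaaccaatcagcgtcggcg
H2-Q10: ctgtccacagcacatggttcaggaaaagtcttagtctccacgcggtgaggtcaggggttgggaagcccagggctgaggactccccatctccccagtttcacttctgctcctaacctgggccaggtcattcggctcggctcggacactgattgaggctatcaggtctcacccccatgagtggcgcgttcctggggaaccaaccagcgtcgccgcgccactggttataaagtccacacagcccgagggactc

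In the H2-M2 window the NF-kB consensus matched at 2 places, starting 180 and 146 bases before the start (GGGGAATTCC, and GGAGTTTCCC on the opposite strand). In the window shown for H2-K1, overlapping matches began 111 and 110 bases before the start, and in H2-Q7 a match (GGGGATTCCC) began 133 bases before it. No match was found in H2-Q10, H2-Q2 or H2-T3, which were called lower in RANKL than in ENRI. B2m, also called lower there, had a match (GGAAAGTCCC on the opposite strand). Of the other genes called between RANKL and ENRI, H2-Bl and H2-Q1 (lower) and Cd74, Tap2, H2-Q8 and H2-Q9 (higher) had no window. The consensus was present in windows of 10 of the 35 genes (B2m, H2-Aa, H2-D1, H2-K1, H2-M2, H2-M3, H2-Q4, H2-Q6, H2-Q7 and H2-T22), against 4.51% of all 32851 windows in the table. The interferon element, in the searched letters only, was found in 3 genes (B2m, H2-T22 and H2-T23, against 3.44% of all windows). Variants of this element were not searched for, so its absence from the other genes is not shown. CCAAT was found in 32 genes (37.4%) and the Spi-group site in 1, H2-M10.2 (3.20%). These are matches of letters in related genes, and binding was not measured.

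Between RANKL and ENRI, the M cell and enterocyte cultures, transcription of the H2 genes differed in both directions. Of the 33 tested genes other than H2-M2, 12 were called, with 6 higher and 6 lower in RANKL; among all 16563 genes, 20.9% were called, 10.4% higher and 10.5% lower. Higher in RANKL were Cd74, Tap2 and the class Ib genes H2-Q6, H2-Q7, H2-Q8 and H2-Q9, and lower were B2m and the class Ib genes H2-Bl, H2-Q1, H2-Q2, H2-Q10 and H2-T3. The median change of these 33 genes was -0.14, against -0.0048 over all genes. These calls needed both RANKL libraries. The share over all genes is not given for fits with a lone RANKL library, so the loss is no result about these genes. Without RANKL 1 and without RANKL 2, the difference was 2.01 and 1.92 for Cd74, and -1.89 and -2.10 for H2-Q10. Recentring on upper quartiles gave 4 higher and 9 lower genes; over all genes it called 12.4% higher and 11.2% lower.

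Between RANKL and WENRC, the M cell and stem cell cultures, the calls went one way. Of the same 33 genes, 9 were called and all 9 were higher in RANKL (Cd74, H2-L, H2-Q6, H2-Q7, H2-Q8, H2-Q9, H2-T23, Tap2 and Tapbp); over all genes 12.1% were called, 8.53% higher and 3.62% lower. The median change of the 33 genes was 0.39, against -0.0073 over all genes. The number depended on the fit. The calls were lost without either RANKL library or either WENRC library, where the share over all genes is not given. The Cd74 difference was 1.17 and 1.08 without RANKL 1 and RANKL 2, and 1.15 and 1.09 without WENRC 1 and WENRC 2. With only the 4 libraries compared, limma called 18 (15 higher and 3 lower). With only those 4 libraries, 31.4% of all genes were called. Upper-quartile recentring gave 6 higher and 1 lower gene, with 7.52% higher and 6.59% lower over all genes. Of 7 enterocyte markers, 4 moved in the same direction past the threshold. RANKL exceeded WENRC by 2.26 for Alpi, 4.57 for Apoa1, 3.97 for Apoa4 and 2.42 for Sis. The others were not called, with differences of 0.27 for Fabp1, -0.81 for Rbp2 and -0.595 for Lct. The log2 of the summed level of the 7 was 14.48 to 14.63 in RANKL and 11.33 to 12.72 in WENRC. Sis alone stood at 13.79 and 13.82 in RANKL. The part of these markers in the H2 result was not tested.

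Between WENRC and ENRI, which shared their animals, 11 of the 33 genes were called, 10 of them lower in WENRC (B2m, H2-Bl, H2-D1, H2-K1, H2-L, H2-Q1, H2-Q2, H2-T23, H2-T3 and Tapbp) and 1, Cd74, higher. Over all genes 14.6% were called, 4.85% higher and 9.74% lower, and the median change of the 33 genes was -0.44, against -0.014. The summed level of the 7 enterocyte markers, 15.49 to 16.27 in ENRI, was likewise lower in WENRC, and its part in this result was not tested. With the replicate number as a block in the fit of all 6 libraries, 7 genes were called, all lower, and 9.09% of all genes. That number stands for the mouse in ENRI and WENRC only, and the RANKL libraries entered the block without a known mouse. With only the 4 ENRI and WENRC libraries in the fit, 0 were called (unadjusted p under 0.05 in 13, and in 15 with the block), as also without either RANKL library (13 and 13) or without WENRC 1 (13) or WENRC 2 (11).

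**Figure D1:**
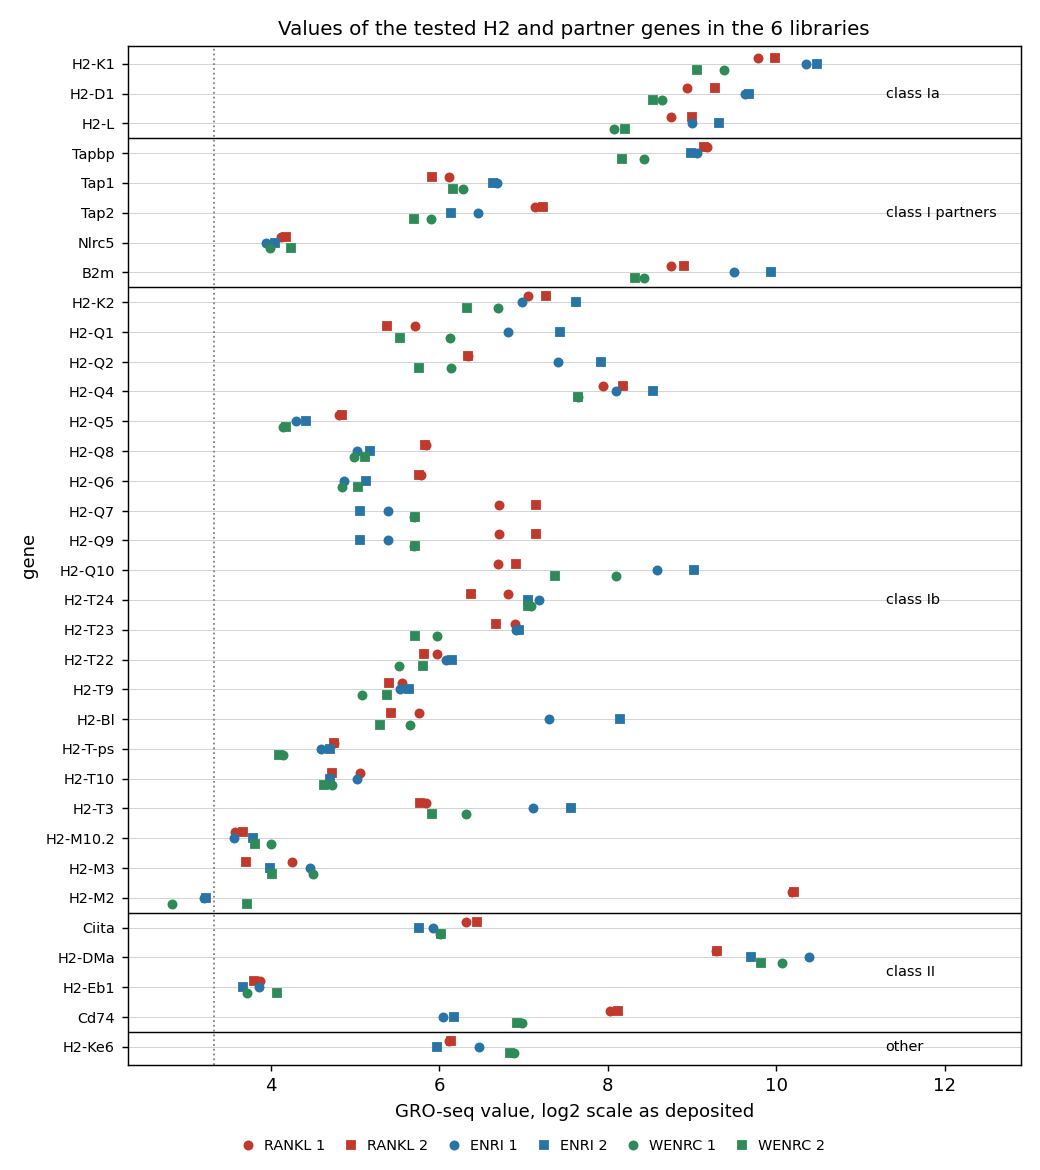
GRO-seq values (log2 scale as deposited) of the 34 tested H2 and partner genes in each of the 6 libraries, grouped by role; colours stand for cultures, shapes for the library number, and the dotted line for the filter at log2 of 10. H2-M2 stands at 10.19 and 10.21 in RANKL and between 2.82 and 3.71 in the other libraries, while H2-K1, H2-D1 and B2m lie highest in ENRI (blue).

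The class Ia heavy chain genes and B2m were ordered ENRI, RANKL, WENRC by their means. H2-K1 (chromosome 17, 34132957 to 34137278) had values of 9.78 and 9.98 in RANKL, 10.36 and 10.49 in ENRI and 9.38 and 9.06 in WENRC. The cultures did not overlap, and the steps between neighbours in the order, -0.54 for RANKL against ENRI (SE 0.17, limma FDR 0.0685) and 0.66 for RANKL against WENRC (SE 0.17, limma FDR 0.0542), did not pass the threshold. The whole span, -1.20 for WENRC against ENRI, did (SE 0.17, limma FDR 0.0131).

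H2-D1, the other classical heavy chain of the reference strain, had 8.94 and 9.27 in RANKL, 9.63 and 9.68 in ENRI and 8.65 and 8.53 in WENRC. It too had no overlap between cultures. The differences were -0.55 (SE 0.16, limma FDR 0.0576) for RANKL against ENRI, 0.52 (SE 0.16, limma FDR 0.0916) for RANKL against WENRC and -1.06 (SE 0.16, limma FDR 0.0150) for WENRC against ENRI. For both H2-K1 and H2-D1 the difference between RANKL and ENRI was called after quantile normalization (limma FDR 0.0351 and 0.0374) and after upper-quartile recentring (limma FDR 0.0382 and 0.0381). Against WENRC, both were called in the fit of only the 4 libraries compared (limma FDR 0.0126 and 0.0321).

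H2-L is annotated on almost the same interval as H2-D1, so reads of the 2 genes cannot be told apart. Both also overlap LOC547349 on the same strand. H2-L had 8.75 and 8.997 in RANKL, 8.99 and 9.32 in ENRI and 8.08 and 8.20 in WENRC. RANKL and ENRI overlapped, and WENRC lay below both. Its difference of 0.73 between RANKL and WENRC (SE 0.18, limma FDR 0.0492) was called, but not without the low-value filter, after either rescaling, without the variance trend or with the replicate block (limma FDR from 0.0516 to 0.0831). WENRC fell by 1.02 against ENRI (SE 0.18, limma FDR 0.0206).

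B2m (NM_009735, chromosome 2, 121973423 to 121978818), the shared light chain of class I molecules, had 8.75 and 8.91 in RANKL, 9.49 and 9.94 in ENRI and 8.43 and 8.32 in WENRC. Its libraries did not overlap between cultures. RANKL stood below ENRI by a difference of -0.89 (SE 0.19, limma FDR 0.0246; 0.0596 with only the 4 libraries compared), and above WENRC by 0.46 (SE 0.19, limma FDR 0.173). WENRC fell by 1.35 against ENRI (SE 0.19, limma FDR 0.0133). B2m overlaps Patl2 on the opposite strand, and strand handling is not given in the sources used here.

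The 3 peptide loading genes did not follow B2m. Tap2, a subunit of the peptide transporter, had 7.13 and 7.23 in RANKL, 6.46 and 6.14 in ENRI and 5.91 and 5.69 in WENRC. Both RANKL libraries were the highest, by 0.88 over ENRI (SE 0.20, limma FDR 0.0312; 0.0678 with only the 4 libraries compared) and by 1.38 over WENRC (SE 0.20, limma FDR 0.0127). Tap1, the other subunit, had 6.11 and 5.91 in RANKL, 6.68 and 6.63 in ENRI and 6.28 and 6.16 in WENRC.

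For Tap1 the RANKL libraries were the lowest, and no difference was called: -0.64 for RANKL against ENRI (SE 0.18, limma FDR 0.0547), -0.21 against WENRC (SE 0.18, limma FDR 0.506) and -0.44 for WENRC against ENRI (SE 0.18, limma FDR 0.159). The first of these was called with the stricter filter, after upper-quartile recentring and without the variance trend (limma FDR 0.0473, 0.0483 and 0.0384). Tapbp, which encodes tapasin, had 9.17 and 9.14 in RANKL, 9.06 and 8.99 in ENRI and 8.43 and 8.17 in WENRC. It stood apart in WENRC, with a difference of 0.86 for RANKL against WENRC (SE 0.15, limma FDR 0.0191). For WENRC against ENRI the difference was -0.72 (SE 0.15, limma FDR 0.0299, or 0.0526 with the replicate block). RANKL and ENRI differed by 0.14 (SE 0.15, limma FDR 0.553).

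Nlrc5, the transactivator of class I genes, was low in all libraries, with 4.12 and 4.18 in RANKL, 3.94 and 4.05 in ENRI and 3.99 and 4.24 in WENRC. Its 3 differences lay between 0.04 and 0.16 (SE 0.18 each) and none was called (limma FDR 0.581 to 0.924).

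**Figure D2:**
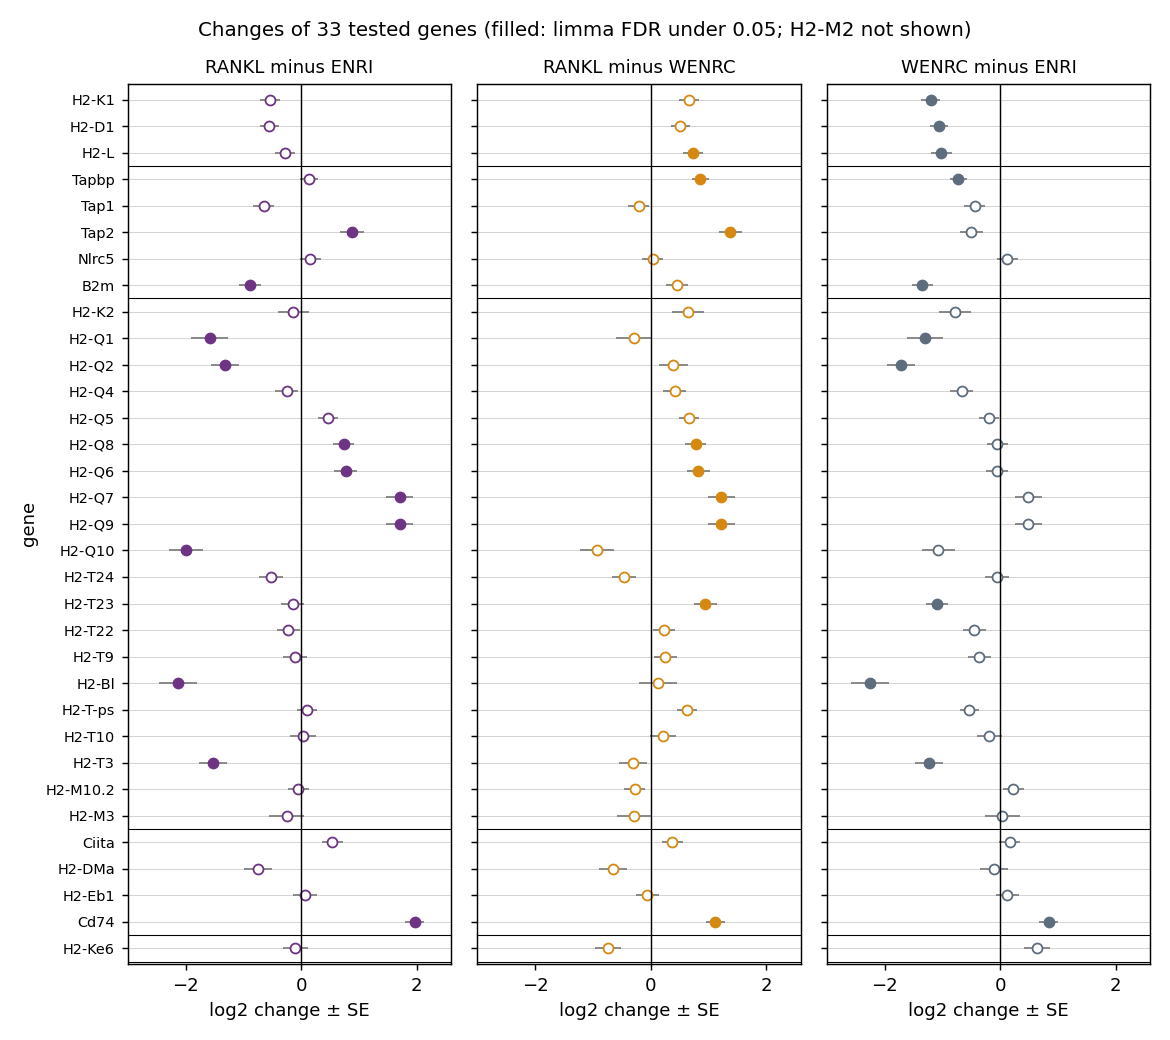
Log2 changes with their SE in the 3 comparisons for the 33 tested genes other than H2-M2, in rows grouped by role as in the plot of values; filled points were called at a limma FDR under 0.05. RANKL against ENRI has 6 genes called on each side, RANKL against WENRC has 9 called to the right and 0 to the left, and WENRC against ENRI has 10 called to the left and 1, Cd74, to the right.

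Among class Ib genes, neighbouring members of the H2-Q group differed in direction. H2-Q7 and H2-Q9, whose products are Qa-2 antigens, are annotated on the same interval (chromosome 17, 35576100 to 35580718 for H2-Q7) and had identical values: 6.71 and 7.14 in RANKL, 5.39 and 5.06 in ENRI and 5.69 and 5.71 in WENRC. RANKL was higher than both other cultures in both libraries. The difference was 1.70 over ENRI (SE 0.23, limma FDR 0.00781) and 1.22 over WENRC (SE 0.23, limma FDR 0.0258), and 0.48 for WENRC against ENRI (SE 0.23, limma FDR 0.214).

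H2-Q6 and H2-Q8, which also share an interval, showed smaller differences of the same sign. H2-Q6 had 5.78 and 5.76 in RANKL, 4.87 and 5.12 in ENRI and 4.84 and 5.04 in WENRC, and H2-Q8 had 5.84 and 5.83, 5.03 and 5.17, and 4.99 and 5.12. RANKL was highest in both libraries, while ENRI and WENRC overlapped. H2-Q6 differed by 0.77 from ENRI (SE 0.20, limma FDR 0.0412) and by 0.83 from WENRC (SE 0.20, limma FDR 0.0481), and H2-Q8 by 0.73 (SE 0.18, limma FDR 0.0383) and 0.78 (SE 0.18, limma FDR 0.0458). Without the low-value filter, after upper-quartile recentring or with the replicate block, none of these 4 differences was called (limma FDR 0.0506 to 0.0883). With each shared locus counted once, 10 of 29 genes other than H2-M2 were called between RANKL and ENRI (4 higher, 6 lower), 6 between RANKL and WENRC (all higher) and 10 between WENRC and ENRI (1 higher, 9 lower).

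H2-Q10 (chromosome 17, 35607034 to 35611508), which encodes a secreted class Ib molecule known from liver, lies next to H2-Q7 and went the other way. It had 6.70 and 6.91 in RANKL, 8.58 and 9.02 in ENRI and 8.09 and 7.37 in WENRC. RANKL was lowest and ENRI highest, with no overlap. The difference was -1.99 for RANKL against ENRI (SE 0.29, limma FDR 0.00923), -0.93 for RANKL against WENRC (SE 0.29, limma FDR 0.0943; 0.0271 with only the 4 libraries compared) and -1.07 for WENRC against ENRI (SE 0.29, limma FDR 0.0590).

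H2-Q1 and H2-Q2, 2 less studied class Ib genes, were high in ENRI against both other cultures. H2-Q1 had 5.71 and 5.38 in RANKL, 6.82 and 7.44 in ENRI and 6.13 and 5.53 in WENRC. For this gene RANKL differed from ENRI by -1.58 (SE 0.32, limma FDR 0.0211). WENRC differed from ENRI by -1.30 (SE 0.32, limma FDR 0.0456, or 0.0691 with the replicate block). H2-Q2 had 6.34 and 6.34 in RANKL, 7.41 and 7.92 in ENRI and 6.14 and 5.76 in WENRC; RANKL differed from ENRI by -1.32 (SE 0.24, limma FDR 0.0174) and WENRC from ENRI by -1.71 (SE 0.24, limma FDR 0.0139). Neither was called between RANKL and WENRC, with differences of -0.28 (SE 0.32, limma FDR 0.606) and 0.39 (SE 0.24, limma FDR 0.345). The H2-Q1 interval, like those of H2-D1 and H2-L, overlaps LOC547349 on the same strand.

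In the H2-T group, 2 genes shared the pattern of H2-Q1. H2-Bl, the blastocyst MHC gene, had 5.76 and 5.43 in RANKL, 7.30 and 8.15 in ENRI and 5.65 and 5.29 in WENRC. Both ENRI libraries stood more than 1 log2 unit above the rest, which overlapped. Its differences from ENRI, -2.13 in RANKL (SE 0.33, limma FDR 0.0111) and -2.25 in WENRC (SE 0.33, limma FDR 0.0146), were the lowest among the tested H2 and partner genes in both contrasts. H2-T3, which encodes the TL antigen of intestinal epithelium, a ligand of CD8 alpha homodimers, had 5.85 and 5.77 in RANKL, 7.11 and 7.57 in ENRI and 6.31 and 5.91 in WENRC. It was called lower in RANKL (-1.52, SE 0.24, limma FDR 0.0119) and lower in WENRC (-1.23, SE 0.24, limma FDR 0.0281, or 0.0505 with the replicate block) than in ENRI.

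H2-T23, which encodes Qa-1, the ligand of the natural killer receptor NKG2A, had 6.90 and 6.67 in RANKL, 6.91 and 6.95 in ENRI and 5.97 and 5.71 in WENRC. It stood lower in WENRC than in both other cultures: RANKL exceeded WENRC by 0.95 (SE 0.19, limma FDR 0.0319; 0.0516 with the replicate block), WENRC differed from ENRI by -1.09 (SE 0.19, limma FDR 0.0219), and RANKL differed from ENRI by -0.15 (SE 0.19, limma FDR 0.629). An antisense gene, A930015D03Rik, is annotated across H2-T24, H2-T23 and H2-T22. Whether their reads were separated by strand is not given in the sources used here. H2-T9 lies inside H2-T22 on the same strand, so reads of these genes cannot be told apart there. H2-M3, which presents formylated bacterial peptides, was low throughout, with 4.25 and 3.70 in RANKL, 4.47 and 3.98 in ENRI and 4.50 and 4.02 in WENRC. Its cultures overlapped, with differences of -0.25, -0.28 and 0.03 (SE 0.30 each; limma FDR 0.594, 0.587 and 0.953). The other tested class Ib genes (H2-K2, H2-Q4, H2-Q5, H2-T24, H2-T22, H2-T9, H2-T-ps, H2-T10 and H2-M10.2) were called in none of the comparisons.

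Class II genes were mostly under the filter in all 3 cultures. H2-Aa and H2-Ab1, the chains of the I-A molecule, were among the 13 low genes, and H2-Eb1, a chain of I-E, had 3.87 and 3.79 in RANKL, 3.86 and 3.67 in ENRI and 3.71 and 4.07 in WENRC. Its cultures overlapped, and its differences of 0.07, -0.06 and 0.13 (SE 0.20 each) were not called (limma FDR 0.722 to 0.884). Cd74 (NM_010545, chromosome 18, 60963503 to 60972306), the invariant chain, was the only class II gene called in any comparison. It had 8.03 and 8.12 in RANKL, 6.05 and 6.17 in ENRI and 6.98 and 6.93 in WENRC. H2-DMa stood above Cd74 in every culture, with means of 9.29 in RANKL, 10.04 in ENRI and 9.94 in WENRC, but was not called.

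The 3 cultures were fully separated for Cd74, in the order RANKL, WENRC, ENRI. RANKL was higher by 1.96 than ENRI (SE 0.16, limma FDR 0.00250) and by 1.12 than WENRC (SE 0.16, limma FDR 0.0127). WENRC exceeded ENRI by 0.84 (SE 0.16, limma FDR 0.0267, or 0.0533 with the replicate block), with 0.93 in mouse 1 and 0.75 in mouse 2. The microRNA gene Mir5107 lies inside Cd74 on the same strand. Ciita, the class II transactivator, had 6.32 and 6.45 in RANKL, 5.93 and 5.76 in ENRI and 6.002 and 6.02 in WENRC. RANKL lay above the other 4 libraries, but the differences of 0.54 (SE 0.18, limma FDR 0.0865) and 0.37 (SE 0.18, limma FDR 0.239) did not pass.

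Leukocytes would be another source of Cd74 and class II transcripts, so 15 leukocyte markers were read in the same libraries. Of these, 10 passed the filter, and the log2 of their summed level over all 15 was 9.77 to 9.89 in RANKL, 9.32 to 9.34 in ENRI and 9.51 to 9.65 in WENRC. Zbtb46, a dendritic cell and endothelial factor and the highest of the 15 in RANKL, was called higher there than in both other cultures. It weighs on the sums above, and no sum without it was taken. It had 8.61 and 8.61 in RANKL, 7.33 and 7.31 in ENRI and 7.01 and 7.04 in WENRC. The other tested markers went both ways, and none was called between RANKL and either culture. Their differences ran from -0.90 (Adgre1) to 0.58 (Itgam) for RANKL against ENRI. Against WENRC they ran from -0.58 (Cd68) to 0.57 (Itgam). Cd68 was called higher in WENRC than in ENRI. The pan-leukocyte gene Ptprc ranged from 3.07 to 4.68 and Itgax from 1.03 to 1.27, and none of the 15 was listed at 0 in all libraries. The part of leukocytes in the Cd74 result was not tested.

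**Figure D3:**
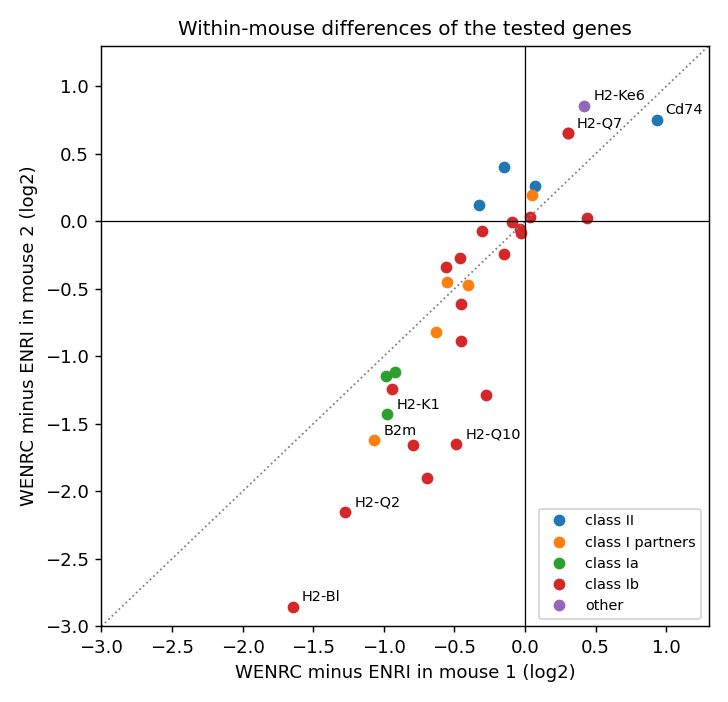
Difference WENRC minus ENRI (log2) in mouse 1 on the horizontal axis and in mouse 2 on the vertical axis. Points are the 33 tested genes other than H2-M2, coloured by role, and the dotted line marks equal differences. H2-Bl lies lowest, at -1.64 in mouse 1 and -2.86 in mouse 2, and Cd74 lies at 0.93 and 0.75.

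Because each mouse gave 1 ENRI and 1 WENRC library, the 11 calls between these cultures can be read within animals. Each of the 11 had the same sign in both mice, which the call on the mean of these differences favours. H2-K1 differed by -0.97 in mouse 1 and -1.43 in mouse 2, B2m by -1.07 and -1.62, and H2-Q2 by -1.27 and -2.15. H2-M2 had opposite signs, -0.38 and 0.48.

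The genes that supply and process peptides, taken from a list of 39 antigen presentation genes outside the H2 and partner genes, were read alongside; 33 were tested. Between RANKL and ENRI 8 were called (6 higher, 2 lower; 20.9% of all genes were called), between RANKL and WENRC 7 (all higher; 12.1% of all genes called) and between WENRC and ENRI 6 (all lower; 14.6% of all genes called). Of 12 tested genes of class I peptide supply, Psme1 and Psme3, which encode proteasome activator subunits, and Calr, the chaperone calreticulin, were called higher in RANKL than in ENRI and than in WENRC. Psme1 had 8.45 and 8.67 in RANKL, 7.58 and 7.71 in ENRI and 7.02 and 6.51 in WENRC. Psmb9, an immunoproteasome subunit gene placed next to Tap1, had 4.99 and 4.82, 5.08 and 5.07, and 4.66 and 4.47, and was called in none of the comparisons. Of 10 tested genes of class II processing, none was called between RANKL and ENRI (0 of 10 in limma), while Ctss, the protease that trims the invariant chain, was higher in RANKL than in WENRC by 1.50 and lower in WENRC than in ENRI (-1.41).

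Among 9 regulators of these promoters, the NF-kB subunit genes Nfkb1 and Rela were called higher in RANKL than in both other cultures. Nfkb1 had 12.05 and 12.03 in RANKL, 11.14 and 11.05 in ENRI and 10.83 and 10.72 in WENRC. Irf1, of the interferon response, was called lower in RANKL than in ENRI, and Irf1 and Irf2 lower in WENRC than in ENRI. Irf1 had 8.94 and 8.89 in RANKL, 9.57 and 9.82 in ENRI and 8.48 and 8.27 in WENRC, the order of cultures seen for H2-K1 and B2m; no relation between the genes was tested. The pathway calls of both RANKL comparisons also needed both RANKL libraries. For fits with a lone RANKL library the share over all genes is not given.

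H3K27me3, the mark deposited by the Polycomb complex PRC2 and found over silent genes, was given by the authors as regions higher in RANKL than in WENRC and regions higher in WENRC than in RANKL, each assigned to its nearest gene. The RANKL libraries were pooled, WENRC is a single library and ENRI has no library, so there is no replicate check and no test. The authors' fold is the ratio of tags and was at least 2. To the 51 genes were assigned 52 RANKL-higher regions, on 19 of them (37.3%, against 33.7% of all listed genes), and 6 WENRC-higher regions, on 6 of them (11.8%, against 24.0%). Within 5 kb of a start site the shares were 17.6% for RANKL-higher regions (19.1% of all genes) and 5.88% for WENRC-higher regions (5.44%). The shares of genes with a RANKL-higher region and of genes with a region near the start were thus near the background.

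The RANKL-higher regions covered 43.6 kb in all, with folds of 2.10 to 5.28 and a median of 3.04 (2.92 over all 35798 RANKL-higher regions), and 40 of the 52 were intergenic (76.9%, against 53.4%). By role, 43 were assigned to 14 class Ib genes and 9 to 5 class II genes, and 0 to class Ia genes or class I partners. Of the class Ib regions, 31 were assigned to 8 H2-M genes, and 6 of these 31 lay within 5 kb of a start site. The 8 genes were listed at 0 or lay under the filter, with the exception of H2-M10.2. Genes of this group other than H2-M5 are known from pheromone-sensing neurons. H2-M11 was assigned 10 regions covering 11956 bp, none nearer to its start than 7404 bp. H2-M9 and H2-M10.1 were assigned 5 each. The largest single region (chromosome 17, 36720914 to 36725702, 4788 bp) was assigned to H2-M11, 39288 bp from its start. This region had 257 RANKL tags against 106.2 scaled WENRC tags, a fold of 2.42.

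Within 5 kb of a start site lay 11 of the 52 RANKL-higher regions (21.2%, the same as the 21.2% of all RANKL-higher regions). At H2-M5, a region 273 bp from the start (chromosome 17, 37125926 to 37126426, in an intron) had 21 RANKL tags against 4.5, a fold of 4.67. At H2-Q10, whose transcription was lowest in RANKL, a region 265 bp from the start (35607049 to 35607549) had 20 tags against 7.2, a fold of 2.78. The regions of Ciita, 5 in number, were all intronic and 9525 bp or more from its start, with folds of 2.72 to 4.07, while the gene's transcription did not pass the test between RANKL and WENRC. Of the 4 H2-Q genes called higher in RANKL, H2-Q7 had 1 RANKL-higher region 6767 bp before its start (20 tags against 4.5, a fold of 4.44), and H2-Q6 had 1 WENRC-higher region 1145 bp into the gene (24.3 scaled WENRC tags against 5 RANKL tags, a fold of 4.86); H2-Q8 and H2-Q9 were assigned no region.

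No region of either direction was assigned to H2-M2. The nearest RANKL-higher region began 49425 bp before its start and was assigned to Olfr111 (25 tags against 3.6, a fold of 6.94). The nearest WENRC-higher region lay 144953 bp away on the other side, assigned to Olfr103, with a fold of 3.75. The 6.93 difference in H2-M2 transcription between RANKL and WENRC thus had no differential H3K27me3 region at the gene in these lists; regions with equal signal in both cultures would not be in them.

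**Figure D4:**
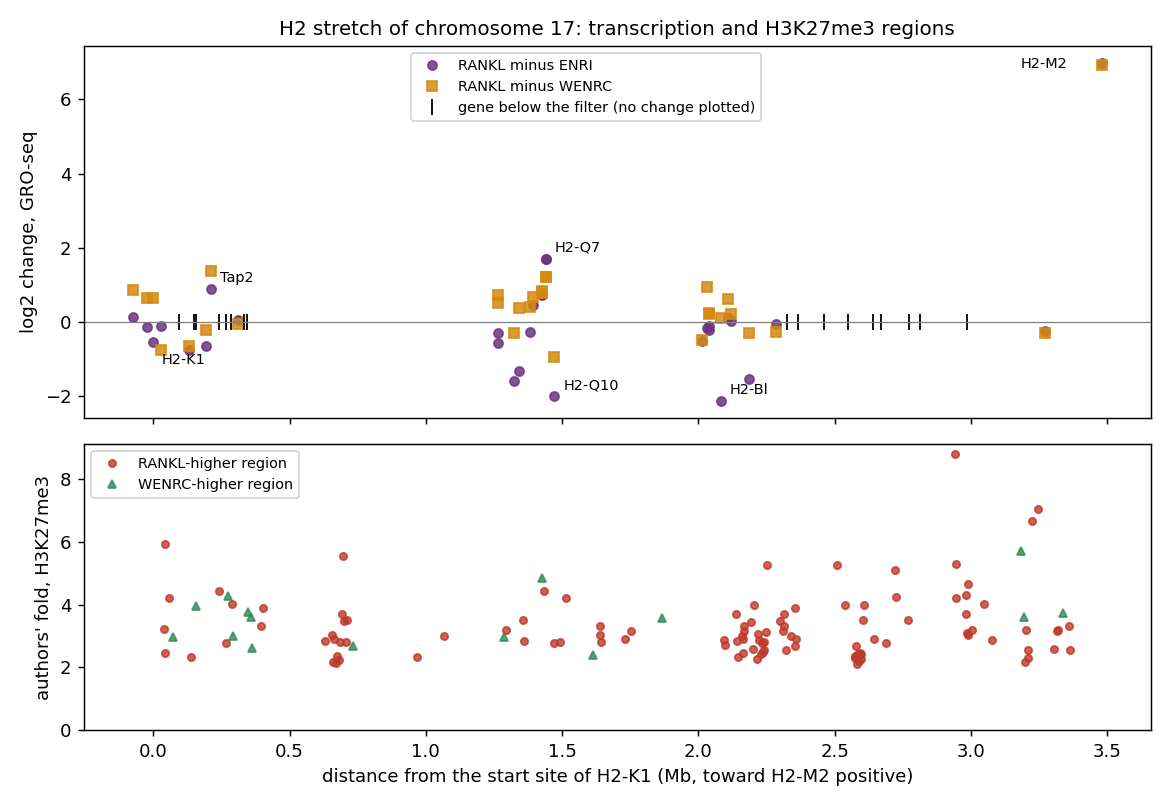
The stretch of chromosome 17 from Tapbp to H2-M2, with distance from the start of H2-K1 in Mb on the horizontal axis. The upper panel gives log2 changes of the tested genes in RANKL against ENRI and against WENRC, with ticks for genes under the filter; the lower panel gives the authors' fold of each H3K27me3 region, 110 RANKL-higher and 15 WENRC-higher, and H2-M2 stands alone at 6.98 and 6.93 at the right end.

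This stretch, 3.56 Mb long (chromosome 17, 34056423 to 37620499), held 47 of the 51 genes among 210 listed genes. Its 110 RANKL-higher and 15 WENRC-higher regions were assigned to H2 and other genes alike. Called H2 genes lay beside uncalled ones: Tap2 was called higher in RANKL than in ENRI while Tap1, 7254 bp away, was not, and H2-Q7 and H2-Q10, called in opposite directions, lie 26316 bp apart.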

How the data were processed

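GRO-seq was measured in 6 libraries of 3 cultures. Per the file headers, the authors counted reads over RefSeq genes of mm9 with HOMER, keeping 1 transcript per gene, and compared all pairs of cultures; the submitters' processing notes name Bowtie2 2.3.4.1, HOMER and DESeq2. The deposited values are log2 values normalized between libraries, with no read totals, and the transform is not given in the sources used here. The deposited log2 fold changes, p-values and adjusted p-values of the authors were turned to first-named minus second-named, and gene length in bp was used as deposited. H3K27me3 regions were called by the authors with HOMER, each culture against the other, per the file headers. RANKL tags per region are deposited as counts, pooled over 2 libraries; the authors scaled WENRC tags, which are therefore a signal, and their fold is a ratio of tags. Deposited region p-values were copied for description.

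On the log2 values limma 3.58.1 (R 4.3.3) was fitted with a variance trend to all 6 libraries as 3 group means, after a filter of at least 2 libraries at log2 of 10, and two-sided p-values were adjusted by Benjamini-Hochberg over 16563 genes. The fit was tested on simulated data. No per-sample column was left unmatched. The genes and lists were chosen with earlier results of these data known. Given in full are H2-M2, each gene called in any comparison and a fixed set of classical, partner and class II genes; H2-M2's 3 neighbours on each side and the 5 genes nearest to it in profile were named by rule. Same-numbered ENRI and WENRC libraries come from the same mouse, per the labels; across 16563 genes their replicate differences correlated (Pearson's r 0.41), while the RANKL numbers did not pair with them (r -0.20 with ENRI and -0.32 with WENRC). Alternatives tried were other filters, 2 rescalings, no variance trend, the replicate block, fewer libraries, the authors' table, and stricter region limits; counting shared loci once was added after seeing the data. Per-length levels are log2 values less log2 of the length in kb.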

Additional observations from a re-analysis of the deposited data

How the results depend on the processing

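With 2 libraries a culture, the calls depend on how the spread is estimated; where 1 library is left out, the lone library of its culture is assumed to vary like the others. The counts of H2 and partner genes here leave out H2-M2. The number of H2 and partner genes called between RANKL and ENRI (12) was 8 to 14 under the settings that leave out no library. Between RANKL and WENRC (9) it was 5 with the replicate block and 18 with only the 4 libraries compared. Between WENRC and ENRI (11) it was 7 with the replicate block in all 6 libraries. It was 0 with only the 4 libraries compared, with or without the block. These numbers also moved where single libraries were left out, as given above. Upper-quartile recentring moved the median of all genes by -0.11 for RANKL against WENRC and by 0.11 for WENRC against ENRI. The cause of these changes was not tested, and the unknown depth allows no counting interval.

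The pathway genes called were 8 between RANKL and ENRI (5 with the replicate block; 0 to 13 with 1 library left out), 7 between RANKL and WENRC (17 with only the 4 libraries compared, 15 in the authors' deposited table; 0 to 16) and 6 between WENRC and ENRI (3 without the low-value filter, 0 with only the 4 libraries compared and 0 there with the replicate block; 0 to 9). H3K27me3 regions higher in RANKL went from 52 to 11 at a fold of at least 4 and to 11 within 5 kb of a start, and those higher in WENRC from 6 to 2 and to 3, since both limits keep fewer regions.

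Signs turned in 19 cases, in none of which a difference was called. After upper-quartile recentring Nlrc5 differed by -0.079 between RANKL and WENRC, and H2-Q6 by 0.057 and H2-Q8 by 0.065 between WENRC and ENRI. With 1 library left out, the differences of RANKL against ENRI ranged from -0.030 to 0.16 for H2-Eb1 and from -0.53 to 0.025 for H2-M3. Those of RANKL against WENRC ranged from -0.058 to 0.30 for H2-Bl, from -0.24 to 0.12 for H2-Eb1, from -0.58 to 0.012 for H2-Q1 and from -0.090 to 0.16 for Nlrc5. Those of WENRC against ENRI ranged from -0.054 to 0.31 for H2-Eb1, from -0.40 to 0.50 for H2-M2, from -0.21 to 0.27 for H2-M3, from -0.18 to 0.073 for H2-Q6, from -0.12 to 0.026 for H2-Q8 and from -0.0033 to 0.25 for Nlrc5.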

Other observations

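H2-DMa, a chain of the class II peptide exchanger, was far above the other class II chain genes, with 9.29 and 9.29 in RANKL, 10.39 and 9.70 in ENRI and 10.07 and 9.82 in WENRC. The RANKL libraries were the lowest, and no difference was called (-0.75 against ENRI, SE 0.24, limma FDR 0.0769; -0.65 against WENRC, SE 0.24, limma FDR 0.140). In the authors' deposited table the second of these passed, with a log2 change of -0.79 and an adjusted p of 0.000304, and the first did not (adjusted p 0.0593). Its start lies 225 bp from that of Brd2, a chromatin reader gene on the opposite strand, which had 11.39 and 11.55 in RANKL, 11.01 and 11.06 in ENRI and 11.09 and 11.22 in WENRC. Brd2 was looked up after the values of H2-DMa were seen, and its part in them was not tested. The partner of H2-DMa, H2-DMb1, was under the filter in all libraries.

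H2-Ke6, a steroid dehydrogenase gene inside the complex, had 6.11 and 6.13 in RANKL, 6.47 and 5.98 in ENRI and 6.89 and 6.83 in WENRC. Its difference of 0.64 for WENRC against ENRI (SE 0.22, limma FDR 0.105) was opposite in sign to those of the class Ia genes and did not pass. RANKL differed from WENRC by -0.74 (SE 0.22, limma FDR 0.0859), which did not pass, while the authors' deposited table gave a log2 change of -1.20 with an adjusted p of 0.0271.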
